A study of Mus musculus with 3 samples.

Results

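DNA methylation in and around 72 genes of the sperm axoneme and of cilia was examined in mouse sperm after doxorubicin. The genes were chosen by symbol from the deposited methylation table: axonemal dynein chains (Dnahc, Dnaic, Dnali), tektins (Tekt), radial spoke genes (Rsph), Hydin, Spag genes, intraflagellar transport genes (Ift), BBSome genes (Bbs), the CatSper channel (Catsper), Akap3 and IQ-motif genes (Iqc). They held 686 of the 143198 listed windows of 500 bp, each window counted once per gene, and 82105 windows carried any gene annotation. By symbol the rule takes in a few genes that are not known for axonemes, such as Spag5, a mitotic spindle protein, and Spag9, a scaffold of kinase signalling, with 1 window each. RefSeq lists 98 mouse genes under the same name patterns, of which 27 were not matched to a member, among them Akap4, Spef1, Spef2, Tekt2, Rsph4a and Ift74. The match was by symbol, so a gene listed under an older name outside the patterns would also count as unmatched.

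The axoneme is the microtubule core of the sperm tail and of motile cilia. Outer and inner dynein arms slide its doublets, radial spokes and the central pair regulate the beat, and tektins line the tubules. Intraflagellar transport trains and the BBSome carry cargo along cilia, CatSper is the calcium channel of the sperm tail, and the fibrous sheath that holds Akap3 surrounds the axoneme.

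The study asked how doxorubicin (DXR), a topoisomerase II poison used in chemotherapy, changes DNA methylation in sperm. C57BL/6 mice received saline (vehicle control), 0.02 mg/kg DXR (low dose) or 0.2 mg/kg DXR (high dose) by intraperitoneal injection, 2 times per week for 5 weeks from 8 weeks of age, and sperm was taken from the cauda epididymis 4 days after the final dose, at 14 weeks. DNA bound by the methyl-CpG protein MBD2 was sequenced (MBD-seq), so a window scores high where methylated CpGs were captured. There was 1 library per group, from sperm of an unstated number of animals, so no difference below has a replicate check, no test was made, and all values describe these 3 libraries.

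The score given here is the deposited RMS, which has no unit and is not defined in the file headers. A change is the log2 ratio of RMS in the treated to the control library after adding 0.766 to both, which understates the change of low windows, and a window is called lower or higher where its change is at least 1 in size. The table lists a window where RMS exceeded 1 in some library, so windows low in all 3 libraries are not analysed here. A window listed through the control alone had to be lower in both treated libraries. One listed through 1 treated library alone had to be highest in that library. Depth per window is unknown, since the values are not counts, so no counting interval is given. For the label sperm, all 5 of the paternally methylated loci H19, Meg3, Dlk1, Rasgrf1 and Zdbf2 had listed windows, 22 in all. Their highest RMS was 5.58 in control, 5.94 in low dose and 5.73 in high dose sperm. Only 3 of the 22 lay upstream or in a first exon, and 0 of 6 RefSeq promoters of these loci overlapped a listed window. The windows were taken by gene symbol, and 15181 symbols had windows, so their presence does not bear on the label. Of 10 genes whose promoters are unmethylated in germ cells, 4 had windows, and 0 of their 15 windows lay upstream or in a first exon. Of the 14 RefSeq promoters of these 10 genes 0 overlapped a listed window, against 4.07% of all promoters. A 0 was thus likely for any genes and does not bear on the label.

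The methylated windows of these genes were rarely at promoters. RefSeq (GRCm38.p6) gives 95 promoters, each from 250 bases before to 50 bases after a start site, for 84 genes under the name patterns, and 3 of them (3.16%) overlapped a listed window by 1 base or more, against 1336 of all 32851 promoters (4.07%). Members' promoters held a median of 12 CpGs, and all promoters a median of 7. The 3 that overlapped belonged to Dnahc5 (Dnah5 in RefSeq), Catsper4 and Iqcj and held 6, 2 and 9 CpGs. Their 250 bases upstream of the start site are shown first, because they are the promoter sequence that the captured windows reach. Bbs9 and Hydin follow because windows inside these genes had the lowest high dose changes of all members while no listed window overlapped these promoter sequences. Every CG is in capitals and all sequences read 5′ to 3′ on the gene's strand.
Dnah5 (chr15:28203516-28203765, plus strand, GRCm38.p6): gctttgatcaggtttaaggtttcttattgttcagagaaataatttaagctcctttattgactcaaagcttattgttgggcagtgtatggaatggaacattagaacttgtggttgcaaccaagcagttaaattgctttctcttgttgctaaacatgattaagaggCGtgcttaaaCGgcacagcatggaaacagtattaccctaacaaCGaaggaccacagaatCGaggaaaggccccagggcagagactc
Catsper4 (chr4:134227384-134227633, minus strand, GRCm38.p6): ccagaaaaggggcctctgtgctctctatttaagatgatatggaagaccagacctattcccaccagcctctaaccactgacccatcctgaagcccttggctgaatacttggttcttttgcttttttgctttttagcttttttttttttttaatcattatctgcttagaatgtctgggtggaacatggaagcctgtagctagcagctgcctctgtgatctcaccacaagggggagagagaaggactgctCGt
Iqcj (chr3:67891970-67892219, plus strand, GRCm38.p6): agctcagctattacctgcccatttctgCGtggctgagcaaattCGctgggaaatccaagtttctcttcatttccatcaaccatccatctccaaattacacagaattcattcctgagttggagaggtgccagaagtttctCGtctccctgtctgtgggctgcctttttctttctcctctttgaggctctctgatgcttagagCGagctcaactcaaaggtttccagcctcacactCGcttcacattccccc
Bbs9 (chr9:22475465-22475714, plus strand, GRCm38.p6): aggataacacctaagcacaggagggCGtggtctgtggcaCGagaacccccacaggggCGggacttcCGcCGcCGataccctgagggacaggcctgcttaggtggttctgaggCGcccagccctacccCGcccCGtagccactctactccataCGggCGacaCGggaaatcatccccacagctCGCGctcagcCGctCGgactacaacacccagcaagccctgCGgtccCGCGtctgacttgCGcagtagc
Hydin (chr8:110266727-110266976, plus strand, GRCm38.p6): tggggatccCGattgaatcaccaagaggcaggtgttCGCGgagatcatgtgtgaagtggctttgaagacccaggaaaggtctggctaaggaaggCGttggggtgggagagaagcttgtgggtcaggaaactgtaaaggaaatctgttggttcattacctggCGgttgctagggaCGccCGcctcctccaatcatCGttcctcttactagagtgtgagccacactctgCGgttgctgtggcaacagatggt
These stretches held 4 CpGs in Dnah5, 1 in Catsper4 and 5 in Iqcj, against 20 in Bbs9 and 9 in Hydin, and their GC content was 41.2%, 45.2%, 48.4%, 65.2% and 53.6% in the same order.

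The window over the Dnahc5 start site, chr15:28203501-28204000 (mm10), was the only member window called higher in any comparison. Dnahc5 encodes an outer arm dynein heavy chain. Its RMS in this window was 0.358 in control, 1.52 in low dose and 0.595 in high dose sperm, with changes of 1.02 (low dose) and 0.28 (high dose). Only the low dose library was above 1, so its place in the table already made that library its highest. The window runs from base -265 to base 234 of this start site, which is an internal one: it lies 48.9 kb inside the RefSeq span of the gene, in exon 1 of a transcript. The Iqcj window, chr3:67892001-67892500, was also highest in the low dose library, with RMS of 0.918 in control, 1.75 in low dose and 0.809 in high dose sperm (changes of 0.58 at the low and -0.10 at the high dose). In Catsper4, a pore subunit of the sperm calcium channel, the start-site window differed little, at 1.84, 2.0 and 1.64 in control, low dose and high dose sperm.

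Windows upstream of a gene or in exon 1 of any of its transcripts, which can lie far from the gene start, numbered 19. Their median RMS was 1.54 in control, 1.67 in low dose and 1.32 in high dose sperm, against 1.80, 1.68 and 1.60 over all 6270 windows of this kind. Of the 19, 4 (21.1%) were above 1 in the low dose library only, against 4.16% of all such windows. They were those of Dnahc5, Iqcj, Ift80 and a Dnaic2 window at chr11:114733001-114733500. Each was listed through the low dose library alone, so that library had to be its highest. The Ift80 window, in a gene of intraflagellar transport complex B, had RMS of 0.644 in control, 1.05 in low dose and 0.584 in high dose sperm. The Dnaic2 window, in an outer arm intermediate chain gene, had 0.958, 1.18 and 0.990, so it passed 1 by a small margin. In high dose sperm the largest positive change among the 19 was in Rsph6a, a radial spoke gene of the sperm tail, at chr7:19057501-19058000. Its RMS was 1.13 in control, 2.40 in low dose and 2.69 in high dose sperm, so both treated libraries were above the control (changes of 0.74 at the low and 0.86 at the high dose), short of the limit. The first Catsper1 exon held 2 windows, and both were lower after treatment: chr19:5336001-5336500 had RMS of 5.99 in control, 4.53 in low dose and 4.16 in high dose sperm, and the window next to it 1.54, 1.02 and 1.07. Bbs2, a BBSome gene, had an exon 1 window with 2.06, 2.41 and 3.23 in the same order, which is also in exon 12 and lies 20.1 kb from the gene start. With windows on both sides of 0, the median change of the 19 was 0.07 for low dose and -0.04 for high dose sperm. Windows of Ift46 (3.68, 3.45 and 3.56) and the first of 2 Iqce windows (4.29, 4.96 and 4.32) were high in all 3 libraries. The one window upstream of a gene, at -0.605 kb from the start of Iqcf3, had 1.75, 1.78 and 1.32 in control, low dose and high dose sperm. The exon 1 window of Dnahc17, also in exon 20 and 27.5 kb from the gene start, had 1.01, 0.512 and 0.389. The 3 exon 1 windows in Dnahc2 ranged from 0.985 to 2.28 in control sperm, from 1.35 to 2.44 in low dose sperm and from 1.24 to 1.83 in high dose sperm. Another Dnaic2 window, 11.4 kb from the gene start, had 1.27, 0.821 and 0.882, and one at 31.4 kb had 1.03, 1.20 and 1.49. The Dnahc17 window and the Dnaic2 window at 11.4 kb were above 1 in the control only, so both had to be lower after treatment. The second Iqce window had 3.15, 2.90 and 3.27, and the Bbs9 window is described with the lower windows. The 2 Iqce windows lay 36.2 and 33.2 kb from the gene start.

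The methylated windows lay along the gene bodies. Of the 686 windows, 358 were exonic (52.2%) and 323 intronic (47.1%), against 46.5% exonic and 52.4% intronic over all gene-annotated windows. Only 6 windows lay within 1 kb of the RefSeq gene start. With each gene cut into 5 equal parts from start to end, the parts held 96, 122, 156, 155 and 147 windows. The first of the 5 thus held 14.2% of them and the middle one 23.1%. The median control RMS was 1.84, 1.64, 1.90, 1.78 and 1.75 in these parts.

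Axonemal dynein heavy chains made up more than any other family, with 357 windows in 14 genes and a median RMS of 1.97 in control, 1.84 in low dose and 1.76 in high dose sperm. How densely these long motor genes were covered differed widely between them. Dnahc17, an outer arm heavy chain of the sperm tail, held 77 windows, 54 of them exonic, over 109 kb, or 35.3% of its span. Dnahc10, an inner arm chain, held 53 windows (24.3% of its span), Dnahc2, also of the inner arms, 48 (18.7%), Dnahc1, likewise, 20 (15.3%), and Dnahc8, an outer arm chain, 57 (11.5%). At the other end Dnahc3 held 2 windows (0.575%) and Dnahc9 held 3 windows over 337 kb (0.445%). These shares count windows above the deposited RMS limit only and depend on CpG content and on how well reads map. Dnahc7a and Dnahc7b are near-identical copies, as are Rsph3a and Rsph3b, so the split of reads between the copies is uncertain.

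**Figure D1:**
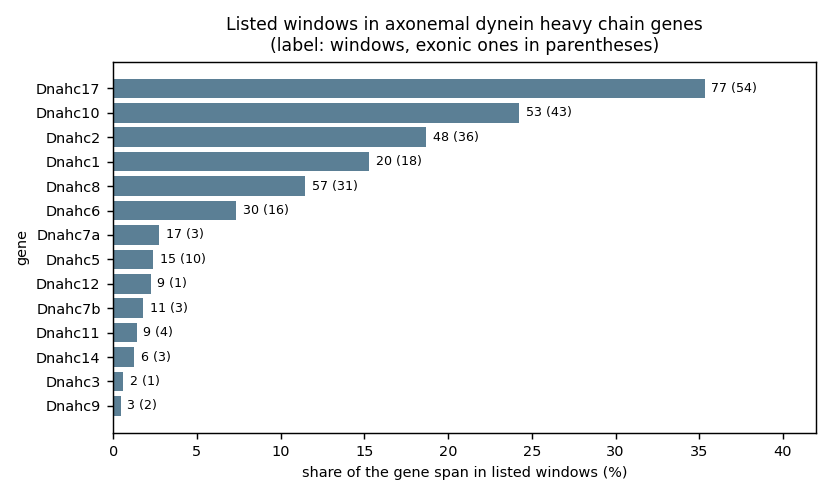
Share of each axonemal dynein heavy chain gene's RefSeq span (x axis, %) that lay in listed 500 bp windows, with the number of windows and, in parentheses, of exonic windows beside each bar. Dnahc17 is at 35.3% and Dnahc10 at 24.3%, while Dnahc3 and Dnahc9 are below 1%.

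The window of highest score in any member was intronic in Dnahc8, chr17:30749001-30749500, with RMS of 9.49 in control, 9.52 in low dose and 7.85 in high dose sperm. It was thus high in all 3 libraries, with a change of -0.25 at the high dose and 0.00 at the low dose. None of the highest control windows of the other families passed the limit either. An intronic Iqck window had 7.85, 8.69 and 7.71 in control, low dose and high dose sperm. Exon 11 of Bbs1, a BBSome subunit, had 7.0, 6.47 and 7.47. An intronic Rsph3b window, chr17:6925501-6926000, had 6.44, 7.97 and 7.53. Both treated libraries were above the control there. They were also above it in an exonic Ift57 window (complex B of intraflagellar transport) that overlaps the gene model Gm15518, with 5.30, 7.94 and 8.08, and in a Spag16 intron (a central pair protein), with 5.03, 5.66 and 5.87. Hydin, the central pair protein whose loss causes hydrocephalus, had its highest window in an intron, chr8:110323001-110323500, with 5.33, 3.69 and 3.38. Here the control was the highest library. Exon 13 of Dnaic1 had 3.30, 3.12 and 3.04, exon 7 of Tekt1 had 2.68, 2.85 and 2.92, and exon 5 of Akap3 had 3.05, 4.0 and 3.07 in control, low dose and high dose sperm. Those 3 windows changed by at most 0.32 in size on the log2 scale at either dose.

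At the high dose against control, 11 of the 686 windows were lower (1.60%) and 0 were higher, against 2.52% lower and 0.0824% higher over all windows. Over gene-annotated windows 2.85% were lower and 0.0804% higher. The median change of the members was -0.09 (95% order-statistic interval over windows -0.14 to -0.06). That of all windows was -0.10 and that of gene-annotated windows -0.14. The counts depended on the processing: with the trend of the change over read density (RPM and factor) subtracted, 2 windows were higher and 1 lower (the exonic Bbs9 window), after quantile normalization 3 were higher and 4 lower, with RMS scaled to equal library medians 3 were higher and 7 lower, and with the pseudocount multiplied by 3 none passed the limit. As reported, the axoneme and cilium windows were not called more often than the rest of the table. Below 0 lay 428 of them (62.4%), against 60.8% of all windows and 64.0% of gene-annotated ones.

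At the low dose against control, 11 windows were lower (1.60%) and 1 was higher, against 1.24% lower and 0.12% higher over all windows. Over gene-annotated windows these shares were 1.39% and 0.123%. The median change of the members was -0.06 (-0.10 to -0.03), against -0.05 over all windows and -0.08 over gene-annotated ones. With the density trend subtracted 6 windows were higher (0.875%, against 0.671% of all windows) and 2 lower (0.292%, against 0.211%). After quantile normalization 6 were higher (0.875%, against 0.509%) and 6 lower (0.875%, against 0.610%). With equal library medians 2 were higher (0.292%, against 0.176%) and 6 lower (0.875%, against 0.828%). With the pseudocount multiplied by 3 none passed the limit, against 0.0007% higher and 0.0035% lower over all windows. Both comparisons use the same control library, so a low or high control value moves them together, and their lists are not independent. With that in mind, 5 windows (45.5% of each list) were lower at both doses, which is 0.729% of the members against 0.548% of all windows and 0.622% of gene-annotated ones. None was higher at both doses, against 0.0161% of all and 0.0207% of gene-annotated windows. Between the high and the low dose, 0 member windows were lower or higher, against 0.33% lower and 0.0293% higher over all windows. Over gene-annotated windows these shares were 0.357% and 0.0268%. The members' median change was -0.06, against -0.04 over all windows and -0.05 over gene-annotated ones.

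The change followed read density. With all windows cut into 3 equal classes by mean RPM (the deposited read density, scaled to library size), the members' median change at the high dose was -0.31 in the lowest class (227 windows), -0.08 in the middle class (259) and 0.03 in the highest (200), against -0.35, -0.13 and 0.06 over all windows. At the low dose the members had -0.25, -0.04 and 0.07, against -0.22, -0.06 and 0.04. Of the 11 windows lower at the high dose, 10 were in the lowest class (4.41% of its members, against 6.54% of all its windows). The middle class held 1 (0.386%, against 0.972%). Mean RPM takes in the treated libraries, so a window that drops moves toward the lowest class. Among the 465 members with RMS above 1 in all 3 libraries, 1 was lower at the high dose (0.215%, against 0.281% of all such windows) and 2 at the low dose (0.430%, against 0.134%), with median changes of -0.01 and 0.01. The part of read density in the calls was not tested.

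**Figure D2:**
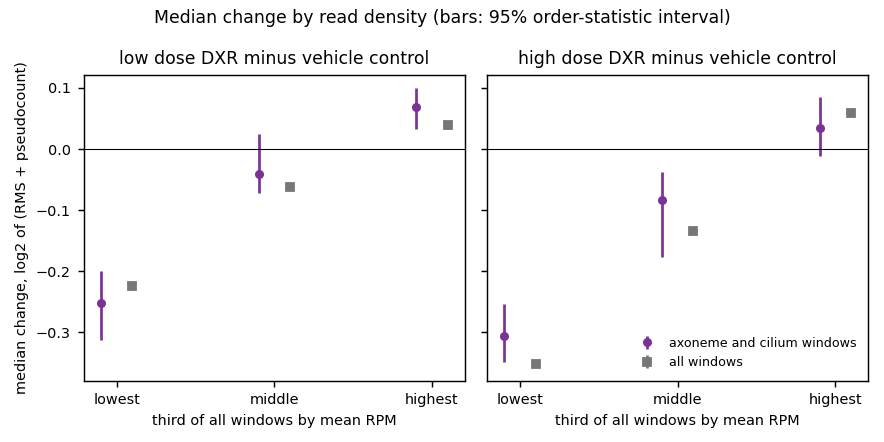
Median change (y axis, log2 of RMS plus pseudocount) against vehicle control in 3 equal classes of all windows by mean RPM, for axoneme and cilium windows (circles) and all windows (squares), at the low dose (left) and the high dose (right). Bars are 95% order-statistic intervals over windows, smaller than the symbol for all windows. In both sets the medians are lowest in the lowest class, at -0.31 for the members and -0.35 for all windows at the high dose.

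Calls at the high dose were nearly all intronic. At the high dose 1 of 358 exonic members was lower (0.279%, against 2.30% of gene-annotated exonic windows), and 10 of 323 intronic members (3.10%, against 3.35%). In low dose sperm 4 exonic members were lower (1.12%, against 1.09%) and 7 intronic ones (2.17%, against 1.66%). Exonic members had the higher score, with a median control RMS of 1.84, against 1.72 for intronic members.

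The 17 windows lower at either dose lay in 13 genes, 12 of them in introns and 5 in exons. Of the 17, 12 were above 1 in the control library only (9 of the 11 at the high dose and 8 of the 11 at the low dose), so their place in the table already made them lower after treatment. Their control read density was 0.599 to 3.36 RPM, and 3 of the 17 were above the control library's median of 2.42 RPM.

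In the dynein heavy chains, 2 windows of Dnahc17 were lower at the high dose, both intronic. The window chr11:118061001-118061500 had RMS of 2.59 in control, 0.771 in low dose and 0.896 in high dose sperm, so both treated libraries were well below the control (changes of -1.13 at the low and -1.01 at the high dose). The window chr11:118089501-118090000 had 1.07 in control and 0.464 in low dose sperm and was listed at 0 in high dose sperm. The window that touches it had 2.73, 2.75 and 2.11, a change of -0.28 at the high dose, so the low value did not extend over both. Lower at the low dose were exon 10 of Dnahc1 (2.75, 0.647 and 1.27 in control, low dose and high dose sperm), exons 46 and 47 of Dnahc2 (3.34, 1.27 and 1.84), and exons 72 (1.32, 0.271 and 0.30) and 90 (1.08, 0.094 and 0.373) of Dnahc8. Their low dose changes were -1.31, -1.01, -1.01 and -1.10, and the high dose changes were -0.79, -0.66, -0.97 and -0.70. In Dnahc2 both touching windows were listed and had low dose changes of -0.67 and -0.52, so here 3 windows in a row were below the control. The first touching window (1.39, 0.586 and 0.971) was listed through the control alone, so it had to be lower in both treated libraries. The second (2.41, 1.45 and 1.83) was above 1 in all 3 libraries.

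In the spokes and central pair, an intronic Hydin window, chr8:110286001-110286500, 19.3 kb from the gene start, had the lowest low dose change of all members. Its RMS was 1.70 in control, 0.0562 in low dose and 0.110 in high dose sperm (changes of -1.58 at the low and -1.49 at the high dose), with both treated libraries near 0. The Rsph3b window chr17:6922001-6922500 had 1.96, 0.554 and 0.484 (changes of -1.05 at the low and -1.13 at the high dose), and the window touching it 1.32, 0.765 and 0.886. Both were above 1 in the control only, so both had to be lower after treatment. A Rsph10b2 window, chr5:143959001-143959500, which is also annotated to Gm17135, had 1.45, 0.905 and 0.340 and was just past the limit at the high dose (-1.0003). Rsph10b2 had no match in RefSeq, so its distance from a gene start is not given, and whether a copy splits its reads was not checked. In Spag1, a dynein arm assembly factor, the intronic window chr15:36228501-36229000 had 1.53, 0.588 and 0.329 (a high dose change of -1.07). In Spag16 the window chr1:70612001-70612500 had 1.75, 0.426 and 0.768 (a low dose change of -1.08), and the window before it 1.71, 0.501 and 0.954, just outside the limit at -0.97. These Spag16 windows were both listed through the control alone as well.

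Among transport genes, the largest high dose change of all members was in Bbs9, a BBSome subunit. The window chr9:22574501-22575000, in exon 1 of one transcript and 99.2 kb from the gene start, had RMS of 2.90 in control, 1.67 in low dose and 0.531 in high dose sperm, with changes of -0.59 at the low and -1.50 at the high dose. The 3 libraries stepped down with dose, as they did in 27.9% of all windows. The window was the only exonic member called at the high dose. An intronic Bbs9 window, chr9:22735001-22735500, had 1.29 in control, 0.216 in low dose and 0.0452 in high dose sperm (changes of -1.06 at the low and -1.34 at the high dose). Ift140, a complex A subunit, held 2 called windows in introns shared with the gene Tmem204. The one at chr17:25064001-25064500 had 3.43, 2.27 and 1.21, with a high dose change of -1.09. The one at chr17:25058001-25058500 had 3.30, 1.23 and 1.41, with a low dose change of -1.03. Both kept RMS above 1 in every library, so they did not enter the table through the control alone. The Ift81 window chr5:122558001-122558500 had 1.31, 0.638 and 0.210 (a high dose change of -1.09). In Catsperb, an auxiliary subunit of the sperm channel, the intronic window chr12:101556001-101556500 had 1.28 in control sperm, was listed at 0 in low dose sperm and had 0.181 in high dose sperm (changes of -1.42 at the low and -1.11 at the high dose). The other 7 Catsperb windows changed by at most 0.23 in size at either dose, which made this window stand alone in its gene.

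**Figure D3:**
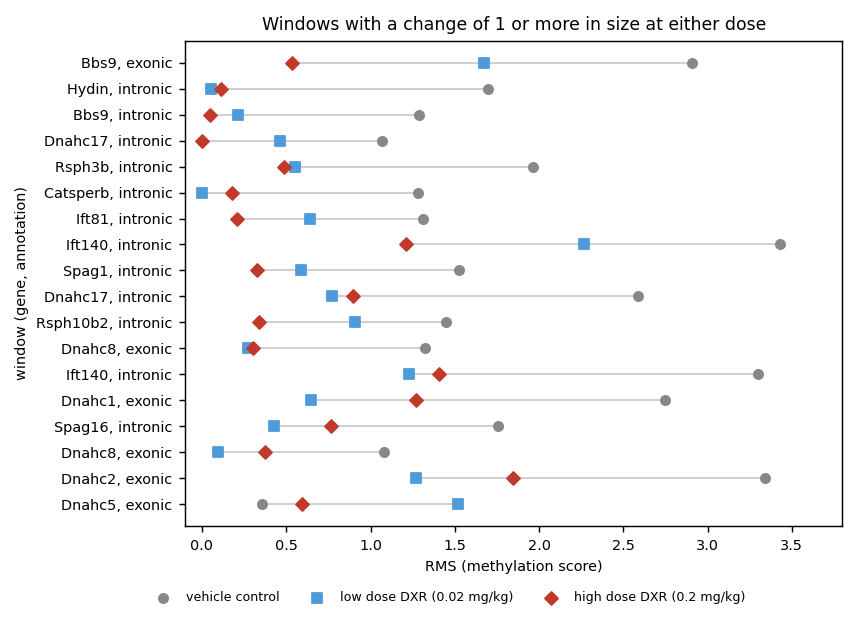
RMS (x axis, no unit) in the vehicle control, low dose and high dose libraries for the 18 windows with a change of 1 or more in size at either dose, 1 row per window, with its gene and annotation. The control point lies to the right of both treated points in 17 rows. In the Dnahc5 row the low dose point is the highest, at 1.52.

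Just outside the limit lay an Ift80 window at -0.99 at the high dose. On the positive side, an intronic Dnahc8 window reached 0.93 at the high dose (RMS of 2.28 in control, 3.59 in low dose and 5.03 in high dose sperm) and an intronic Bbs9 window 0.97 at the low dose. Windows that touch each other changed alike to a moderate degree: across 196 touching pairs of members Pearson's r of the change was 0.36 at the high dose and 0.46 at the low dose, against 0.46 and 0.40 over 46797 pairs of all windows. Pairs share a gene, a library and, with fragments of about 300 bp, some of their reads.

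Averaged over a gene's windows, 37 of the 47 genes with 3 or more windows had a mean change below 0 at the high dose (78.7%, against 79.2% of 8167 genes in the table) and 34 at the low dose (72.3%, against 71.0%). Those shares are close to the rest of the table. The genes named next are the ones with the lowest and highest means, so their direction is a description of how they were picked. At the dose for which each is named, its direction was the same under quantile normalization, library medians and subtraction of the density trend.

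Tekt3, a tektin of the sperm tail, had the lowest high dose mean, at -0.51 ± 0.05 (SD over 4 windows), with -0.28 ± 0.03 at the low dose. All of its windows stepped down with dose, an order found in 27.9% of all windows and 26.8% of the members. Exon 6 had RMS of 1.25 in control, 0.889 in low dose and 0.625 in high dose sperm. The 3 intronic windows had 1.05, 0.721 and 0.484, then 2.14, 1.71 and 1.39, then 2.40, 1.80 and 1.43. The exon 6 window and the first intronic one were above 1 in the control only, so they had to be lower at both doses. Only the other 2 Tekt3 windows were above 1 in all 3 libraries. With the density trend subtracted the means were -0.23 at the high dose and -0.08 at the low dose. The other tektins were less uniform. The one Tekt4 window, in exon 6, had 1.63, 1.06 and 0.817. The Tekt5 windows had 0.823, 0.569 and 1.06, and 1.74, 0.692 and 0.974. Of the Tekt1 windows, 2 were higher at the high dose. The family's median over 10 windows was -0.48 at the high dose (-0.54 to 0.20), against -0.10 over all windows, and no tektin window passed the limit.

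Catsper1, a pore subunit of the channel, had a mean of -0.49 ± 0.18 at the high dose and -0.29 ± 0.11 at the low dose (SD over 3 windows, all exonic). Its exon 11 window had 1.16 in control, 0.949 in low dose and 0.433 in high dose sperm. The other CatSper genes varied: the single window of Catsperg2, an auxiliary subunit, had 1.64, 0.80 and 0.809, and the single Catsper2 window had 5.96, 6.87 and 6.26. Catsper3 averaged -0.09 ± 0.21 at the high dose but 0.20 ± 0.16 at the low dose. Its high dose mean was above 0 under each of the scalings named above. Spag1 averaged -0.43 ± 0.46 at the high dose and -0.47 ± 0.25 at the low dose (6 windows). Its windows disagreed: an intronic one had 2.59 in control, 2.19 in low dose and 3.46 in high dose sperm, while exon 4 had 1.02, 0.596 and 0.492. Its high dose mean was -0.02 after the density trend was subtracted. Ift81 averaged -0.32 ± 0.58 at the high dose over 8 windows and -0.02 ± 0.49 at the low dose, with values from -1.09 to 0.54 at the high dose.

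Dnahc1, the inner arm chain whose loss in human and mouse disturbs the sperm tail, combined a low mean with many windows. It averaged -0.41 ± 0.27 at the high dose, with 18 of 20 windows below 0, and -0.29 ± 0.36 at the low dose, with 15 of 20 below 0. Its median RMS was 1.85 in control, 1.21 in low dose and 1.26 in high dose sperm. The highest window of the gene, at chr14:31303501-31304000, did not share the drop, with 7.22 in control, 6.31 in low dose and 7.21 in high dose sperm. After subtraction of the density trend the gene's means were -0.19 and -0.16 at the high and low dose. The dynein genes with the most windows had means nearer 0: at the high dose Dnahc17 averaged -0.14 ± 0.37 (77 windows), Dnahc8 -0.08 ± 0.34 (57), Dnahc10 -0.01 ± 0.32 (53) and Dnahc2 -0.09 ± 0.30 (48). Those of Dnahc8, Dnahc10 and Dnahc2 were above 0 under each of the scalings named above. That of Dnahc17 was above 0 with the density trend subtracted. Iqch, an IQ-motif gene whose 8 windows are also annotated to Gm16759, had a low dose mean of -0.39 ± 0.44 and a high dose mean of -0.30 ± 0.47.

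At the upper end stood Dnali1, an inner arm light intermediate chain. It averaged 0.27 ± 0.16 at the high dose and 0.28 ± 0.12 at the low dose over 3 exonic windows. In exon 5 its RMS was 1.27 in control, 1.91 in low dose and 2.02 in high dose sperm, in exon 4 it was 1.24, 1.47 and 1.57, and in exon 6, shared with Gnl2, 1.13, 1.55 and 1.32. The control was the lowest library in all 3. Akap3, the protein kinase A anchor of the fibrous sheath, averaged 0.39 ± 0.22 at the low dose, with 5 of 5 windows above 0, and 0.19 ± 0.28 at the high dose. Its last window, chr6:126874001-126874500, had 2.01 in control, 2.89 in low dose and 3.15 in high dose sperm, and another, chr6:126865501-126866000, had 0.921, 2.06 and 1.39. Iqce, which anchors a signalling complex at the base of the cilium, averaged 0.23 ± 0.31 at the high dose and 0.03 ± 0.16 at the low dose over 6 windows. Its largest change was at chr5:140674001-140674500, with 2.57, 3.23 and 5.20 in control, low dose and high dose sperm. Next came Dnahc9, an outer arm chain (0.10 ± 0.46, 3 windows), and Iqcg, needed for building the mouse sperm tail (0.04 ± 0.31, 4 windows), both with an SD over windows beyond their mean. At the low dose Ift172, of complex B, averaged 0.21 ± 0.02 over 4 windows, against 0.03 ± 0.38 at the high dose, and Dnahc9 0.13 ± 0.37.

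**Figure D4:**
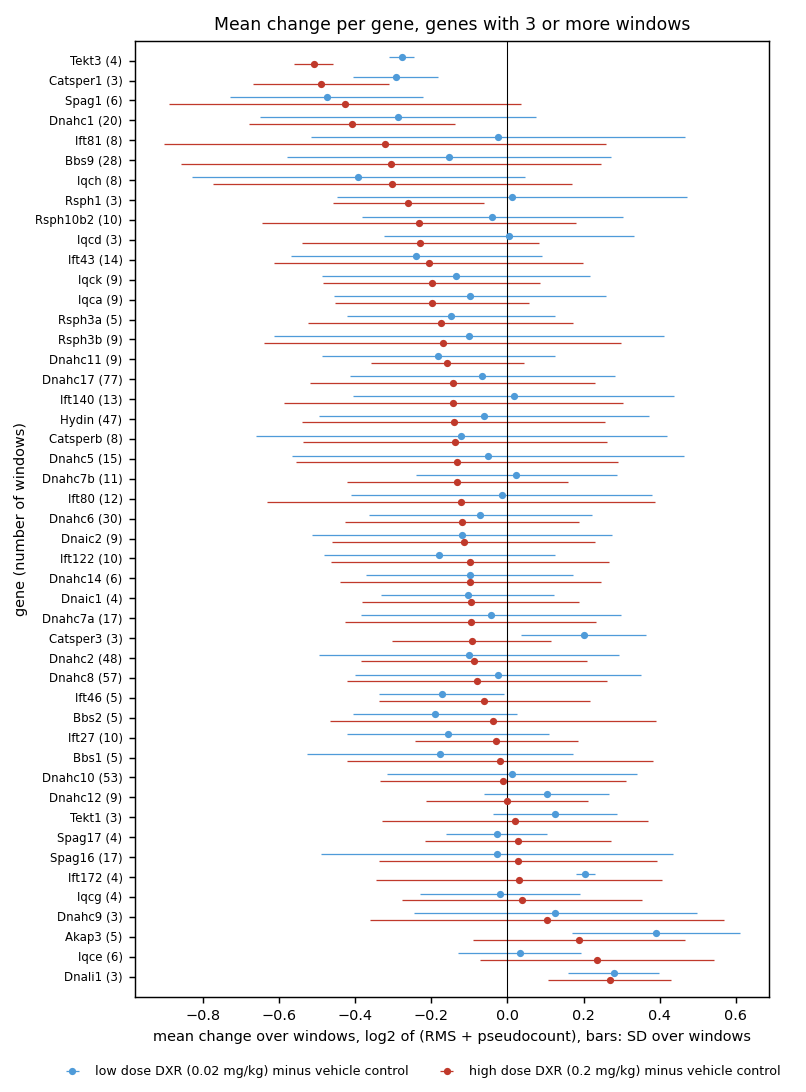
Mean change (x axis, log2 of RMS plus pseudocount) against vehicle control at the low dose (blue) and the high dose (red) for the 47 genes with 3 or more windows, ordered by the high dose mean, with the number of windows in parentheses. Bars are the SD over the windows of a gene in 1 library pair, not a replicate error. Tekt3 is lowest at -0.51 and Dnali1 highest at 0.27.

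By role, the families had median high dose changes near that of the table (-0.10), apart from those of the tektins and of Akap3. Lower at the high dose were 2.52% of all windows and 2.85% of gene-annotated ones, and each family's share rests on at most 2 windows. The dynein heavy chains had a median of -0.12 (357 windows, 2 lower, 0.560%). The dynein intermediate and light intermediate chains had -0.05 (16, 0 lower), and the radial spoke genes -0.11 (30, 2 lower, 6.67%). Hydin had -0.06 (47, 1 lower, 2.13%) and the Spag genes -0.05 (31, 1 lower, 3.23%). The transport genes had -0.08 (Ift, 81 windows, 2 lower, 2.47%) and -0.13 (Bbs, 41, 2 lower, 4.88%). The CatSper genes had -0.05 (18, 1 lower, 5.56%), the IQ-motif genes -0.09 (50, 0 lower) and Akap3 0.28 (5, 0 lower). Of these medians below 0, each was above 0 under 1 or more of quantile normalization, library medians and trend subtraction, except that of the tektins, so these small medians carry no direction of their own. At the low dose the family medians ran from -0.27 in the tektins to 0.35 in Akap3.

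Along the genes, the windows did not change evenly. Bbs9 had a median high dose change of -0.60 over the 11 windows before its midpoint, against -0.13 over the 17 windows after it. Before the midpoint the first window, chr9:22483001-22483500, had RMS of 1.97 in control, 1.47 in low dose and 0.619 in high dose sperm. After the midpoint the touching pair at chr9:22731001-22732000 was higher after treatment, with 2.59, 4.38 and 4.45 in its second window. Spag16 had the opposite pattern, with 0.20 over 13 windows before the midpoint and -0.33 over 4 after it, and so did Dnahc5, with 0.03 over 8 windows and -0.34 over 7. In Ift80, of complex B, the 2 sides had -0.23 and 0.28 over 6 windows each. Hydin (-0.06 and -0.10), Dnahc10 (-0.01 and -0.12) and Dnahc17 (-0.16 and -0.21) differed little between the 2 sides. In the Dnahc10 gene the exonic window chr5:124765501-124766000 had 3.72 in control, 5.32 in low dose and 6.00 in high dose sperm. Over all members the median high dose change was -0.07, -0.07, -0.09, -0.11 and -0.16 from the first to the last of the 5 parts.

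**Figure D5:**
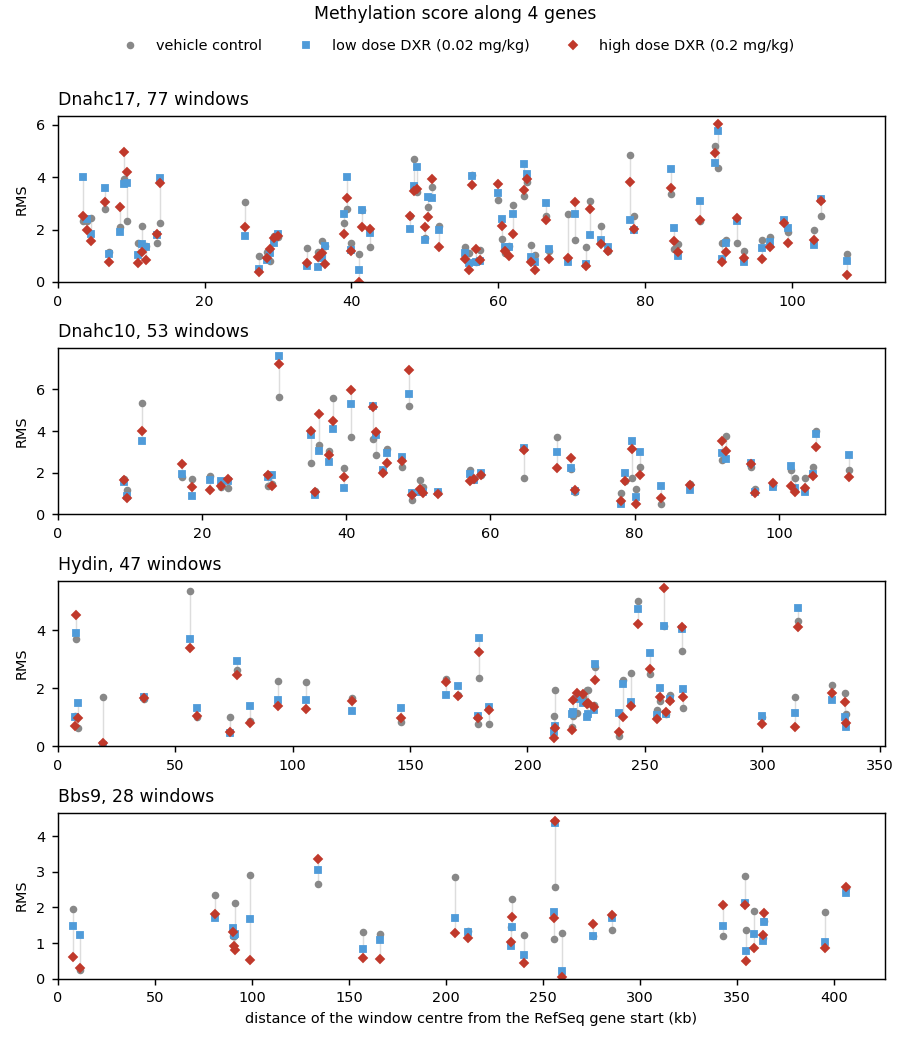
RMS (y axis, no unit) in the vehicle control, low dose and high dose libraries by distance of the window centre from the RefSeq gene start (x axis, kb) for Dnahc17 (77 windows), Dnahc10 (53), Hydin (47) and Bbs9 (28). The Hydin window with 1.70 in control, 0.0562 in low dose and 0.110 in high dose sperm stands at 19.3 kb, and the Bbs9 window with 2.90, 1.67 and 0.531 at 99.2 kb.

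Genes that work with the axoneme or the cilium but carry other names were read as 5 lists. For comparison, 2.85% of gene-annotated windows were lower and 0.0804% higher at the high dose, and 1.39% lower and 0.123% higher at the low dose. Over all windows 2.52% were lower at the high dose and 1.24% at the low dose. The dynein assembly and docking genes had 81 windows in 13 of 21 genes, with 1 lower at each dose (1.23%): exon 6 of Ccdc39, which sets the axonemal repeat, had RMS of 3.21 in control, 1.05 in low dose and 0.996 in high dose sperm. The ciliary motors and other transport subunits had 81 windows in 15 of 18 genes, also with 1 lower at each dose (1.23%). These were different windows, in Kif3c (1.17 in control, 0.320 in low dose, listed at 0 in high dose sperm) and in exon 9 of Kifap3 (2.76, 0.726 and 2.30), both parts of the kinesin-2 motor. The transition zone and basal body genes had 164 windows in 13 of 18 genes, with 7 lower at the high dose (4.27%, against 2.52% of all windows) and 6 at the low dose (3.66%, against 1.24%), and medians of -0.16 and -0.17. Exon 9 of Tctn1, a transition zone protein, had 4.45, 1.83 and 1.80, and exon 11 of Cc2d2a, another, had 2.70, 0.710 and 0.728. The outer dense fibre, fibrous sheath and sperm tail enzyme genes had 59 windows in 13 of 20 genes, with 2 lower at the high dose (3.39%) and 1 at the low dose (1.69%). Exon 3 of Odf3 had 5.85, 4.41 and 2.26. The ciliogenesis transcription factors had 134 windows in 8 of 11 genes, with 5 lower and 1 higher at the high dose (3.73% lower) and 2 lower at the low dose (1.49%). Sox5 held 4 of those lower at the high dose, such as chr6:144339001-144339500 with 2.55 in control, 0.670 in low dose and 0.890 in high dose sperm, and the higher one was in Rfx4, with 0.134, 0.444 and 1.42. The median changes of the 5 lists at the high dose were -0.05, -0.11, -0.16, -0.14 and -0.25 in the order given. Over all windows the median was -0.10, and over gene-annotated windows -0.14.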

How the data were processed

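Genomic DNA of cauda sperm was sonicated to about 300 bp, enriched with MBD2 and sequenced on an Illumina MiSeq, per the labels' protocols. The authors deposited 1 table of 500 bp windows, annotated against Ensembl transcripts dated 2013, month 4, day 3, with 500 bp counted as upstream or downstream, per the file headers. Coordinates are mm10, per the submitters' processing notes. No aligner or read filter is given in the sources used here. Deposited RPM values are read densities that the authors scaled to library size, and all of them were whole multiples of 1 step per library (0.0214, 0.0197 and 0.0216 in control, low dose and high dose), which no header equates with 1 read, so no counts were derived. The deposited RMS and AMS scores are methylation scores whose names the headers do not spell out. Their quotient, called the factor, was the same in all 3 libraries of a window and stood in for CpG content. The deposited ratio equalled low dose RMS over control RMS and was not used further.

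Lines (297037) were reduced to 143198 windows, and members were matched by symbol. RefSeq names (GRCm38.p6) matched 71 of 72 genes, 15 by an older symbol, and 55 member windows were also annotated to another gene. Changes were log2 of RMS plus a pseudocount of 0.766, the percentile 10 of RMS values above 0. Medians have 95% order-statistic intervals over windows, which are not independent and do not stand for replicates. Alternatives were other pseudocounts, quantile normalization, library medians, subtraction of the trend over RPM and factor, RMS above 1 in all libraries, RPM in place of RMS, and leaving out the gene with the most windows. Named were windows past the limit, the highest control window and the gene with most windows per family, upstream and exon 1 windows, the 5 lowest and 5 highest gene means per dose among genes with 3 or more windows, and the 2 sides of the midpoint of genes with 10 or more windows. Other named windows were chosen after their values were seen. The members, the rule for names and the gene lists were chosen with earlier results of these data known. Calculations used Python 3.11.15, numpy 2.4.6, pandas 2.3.3, scipy 1.17.1 and matplotlib 3.10.9, and were tested on simulated data.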

Additional observations from a re-analysis of the deposited data

How the results depend on the processing

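With 1 library per group and an unknown number of reads per window, no setting below is a check on replicates, and windows of low read density limit the calls. No paired analysis was possible because each group had 1 library. Of the 72 values recomputed, 32 stayed within their interval or within 1.5 times the count, 31 moved and 9 medians reversed. Leaving out Dnahc17 moved no count by over 1.5 times. It left 9 lower at the high dose (1.48%, against 2.52% of all windows) and 10 at the low dose (1.64%, against 1.24%). The called windows kept their direction under every setting that kept them, but 1 of the 11 at the high dose (the exonic Bbs9 window, -1.12 with the trend subtracted) and 3 of the 12 at the low dose (in Hydin, Dnahc1 and Dnahc5) passed the limit under all 3 of quantile normalization, library medians and trend subtraction.

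With the pseudocount divided by 3, the high dose gave 4 higher windows (0.583%, against 0.538% of all windows) and 43 lower (6.27%, against 8.50%). The low dose gave 7 higher (1.02%, against 0.781%) and 35 lower (5.10%, against 4.88%). At the high against the low dose 10 were lower (1.46%, against 2.47%). With it multiplied by 3, 0 windows were lower at the high dose (median change -0.0595), and the low dose gave 0 higher and 0 lower.

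Quantile normalization gave 3 higher and 4 lower windows at the high dose (median 0.0119), 6 higher and 6 lower at the low dose (median 0.00835), and a median of -0.00016 for the high against the low dose. Library medians gave 3 higher and 7 lower (median 0.0447), 2 higher and 6 lower (median 0.0174), and a median of 0.0103. Subtraction of the trend gave 2 higher and 1 lower (median 0.0240), 6 higher and 2 lower (median 0.0186), and a median of 0.0014. These 3 scalings moved the high dose median of all windows by 0.11, 0.14 and 0.10, so the reversed medians follow the table as a whole. The shares of all windows called under these scalings stand beside the same counts in the results above.

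With RMS above 1 in all 3 libraries, 1 window was lower at the high dose (median -0.0148), and the low dose gave 0 higher and 2 lower (median 0.00777). With RPM in place of RMS, the high dose gave 1 higher and 9 lower, the low dose 0 higher and 6 lower (median -0.00675), and the median of the high against the low dose was -0.0859. The causes of the other shifts were not tested.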
